A study of Mus musculus with 8 samples.

Results

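The genes described here are 10 genes of antigen presentation by major histocompatibility complex (MHC) class I: the class I heavy chains H2-K1 and H2-D1, their light chain B2m, the peptide transporter genes Tap1 and Tap2, the bridging chaperone Tapbp, the immunoproteasome subunits Psmb8, Psmb9 and Psmb10, and the regulator Nlrc5. They were chosen by symbol from a table of 23282 genes, all 10 were found there, and all 10 were among the 13005 genes tested. RNA was taken from 2000 sorted hematopoietic stem and progenitor cells of mouse bone marrow for each sample. There were 4 samples labelled Hdc-/- (C57BL/6 background), Hdc being the gene of histidine decarboxylase, which makes histamine, and 4 from C57BL/6 wild-type (WT) mice. The labels give no age, sex or sort markers. Nothing in them says that each sample was a separate mouse, so the p-values speak only to variation among these libraries, part of which may be technical.

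Nucleated cells show fragments of their own proteins on class I molecules. The proteasome cuts proteins into peptides, the transporter of Tap1 and Tap2 carries these into the endoplasmic reticulum, and tapasin (the product of Tapbp) holds empty class I molecules at the transporter until a peptide binds, after which heavy chain and B2m reach the cell surface and are read by CD8 T cells and natural killer cells. Interferons raise the genes of this pathway, replace the constitutive catalytic subunits of the proteasome by the immunoproteasome subunits, and induce Nlrc5, the transactivator that acts at class I promoters.

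The upstream DNA of these genes is shown first because class I genes are known to be controlled together through shared promoter elements. H2-K1, H2-D1, B2m and the Tap1 and Psmb9 pair hold matches to some of these. RefSeq promoter windows on build GRCm38.p6 were matched for 8 of the 10 genes. The window tables gave none for Tap2 or Nlrc5, which are named only. Capitals mark letters found by a search of both strands for AANNGAAA (core of the interferon-stimulated response element), GGNNTTNCC (like a kappa B site), TGACG (core of the X2 element), CCAAT (the Y box) and TTCNNNGAA (the gamma-activated site). The H2-K1 stretch lies at chr17:34000348-34000488 on the minus strand, H2-D1 at chr17:35262893-35263060 on the plus strand, B2m at chr2:122147535-122147653 on the plus strand, and the DNA between the Tap1 and Psmb9 starts at chr17:34187331-34187555, read on the plus strand towards Tap1. Each is printed 5′ to 3′ and ends before the gene's start.
H2-K1: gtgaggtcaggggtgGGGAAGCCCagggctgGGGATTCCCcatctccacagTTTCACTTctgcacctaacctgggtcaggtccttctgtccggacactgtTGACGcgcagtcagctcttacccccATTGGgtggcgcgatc
H2-D1: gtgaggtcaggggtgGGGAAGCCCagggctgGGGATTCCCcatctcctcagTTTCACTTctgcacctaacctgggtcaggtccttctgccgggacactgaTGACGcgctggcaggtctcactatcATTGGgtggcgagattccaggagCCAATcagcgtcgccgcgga
B2m: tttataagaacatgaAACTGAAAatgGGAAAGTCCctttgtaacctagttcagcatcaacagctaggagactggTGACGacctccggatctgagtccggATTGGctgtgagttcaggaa
Tap1 and Psmb9: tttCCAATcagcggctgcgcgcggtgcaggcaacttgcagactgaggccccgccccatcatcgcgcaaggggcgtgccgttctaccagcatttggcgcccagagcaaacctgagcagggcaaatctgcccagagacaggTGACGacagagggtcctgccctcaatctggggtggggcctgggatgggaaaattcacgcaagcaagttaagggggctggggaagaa

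In the 250 bases before the start, H2-K1, H2-D1 and B2m each held 4 of the 5 motifs, all but the gamma-activated site. The H2-K1 and H2-D1 stretches, of 141 and 168 bases, were identical at 128 of 168 aligned columns (76.2%). The extra length printed for H2-D1 counts as not identical and lowers this share. The interferon-stimulated core was found in 3 of the 8 windows, against 21.3% of all 32851 RefSeq windows, and the kappa B-like motif in the same 3 genes, against 13.5%. The X2 core was found in 5 of the 8 (17.8% of all windows) and the Y box in 6 of the 8 (33.8%). Tap1 and Psmb9 start 225 bases apart on opposite strands, so their windows share 1 X2 core and 1 Y box. Psmb8 held only a gamma-activated site (7.02% of all windows), Tapbp only the Y box, and the annotated Psmb10 window none of the 5. The windows of 2 constitutive subunits held 2 motifs each, as many as Tap1 and Psmb9. These were the kappa B-like motif and X2 core for Psmb5 and the interferon-stimulated core and X2 core for Psmb6. Such matches are therefore not particular to the class I genes. A match describes these letters and not binding.

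Libraries held 16322738 to 19775106 reads on named genes. Hdc, the gene named in the labels, was higher in the libraries labelled Hdc-/-. Its level was 44.3, 42.7, 42.2 and 42.9 counts per 1000000 reads (CPM) in Hdc-/- libraries 1, 2 and 3 and an unnumbered library. It was 16.0, 12.2, 14.5 and 14.7 CPM in WT libraries 1 to 4. Counts per gene do not show which part of Hdc was read, so they do not settle whether the labels hold. For that reason the text speaks of libraries labelled Hdc-/-, and every direction rests on those labels. Stem and progenitor genes were present, with Kit at 1481 ± 53.5 and 1190 ± 258.2 CPM and Cd34 at 1365 ± 23.4 and 1370 ± 36.8 CPM in the libraries labelled Hdc-/- and in WT (SD, n = 4). WT 1 stood apart from the other WT libraries: the median difference on the log2 CPM scale was 0.31 for 443 genes with under 1000 bases of exon and -0.10 for 6272 genes with over 3000 bases, and values for the 10 genes that change their call or sign without it are also given without it.

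Most class I presentation genes were modestly lower in the libraries labelled Hdc-/-, the called ones by 13.6% (H2-D1) to 27.0% (Nlrc5). Of the 10 genes 7 fell, none rose and 3 did not pass an adjusted p of 0.05 in edgeR's quasi-likelihood test over all genes. Over all 13005 genes tested, 2.71% fell and 2.05% rose, and among the 2363 genes whose mean level was at least that of the lowest of the 10, 3.64% fell. The median log2 fold change of the 10 was -0.27, against 0.00 over all genes tested. The groups did not overlap in 8 of the 10, each time with the libraries labelled Hdc-/- below WT, as was so for 6.88% of all genes. In bulk samples fewer cells of a type and less RNA per cell cannot be told apart.

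**Figure D1:**
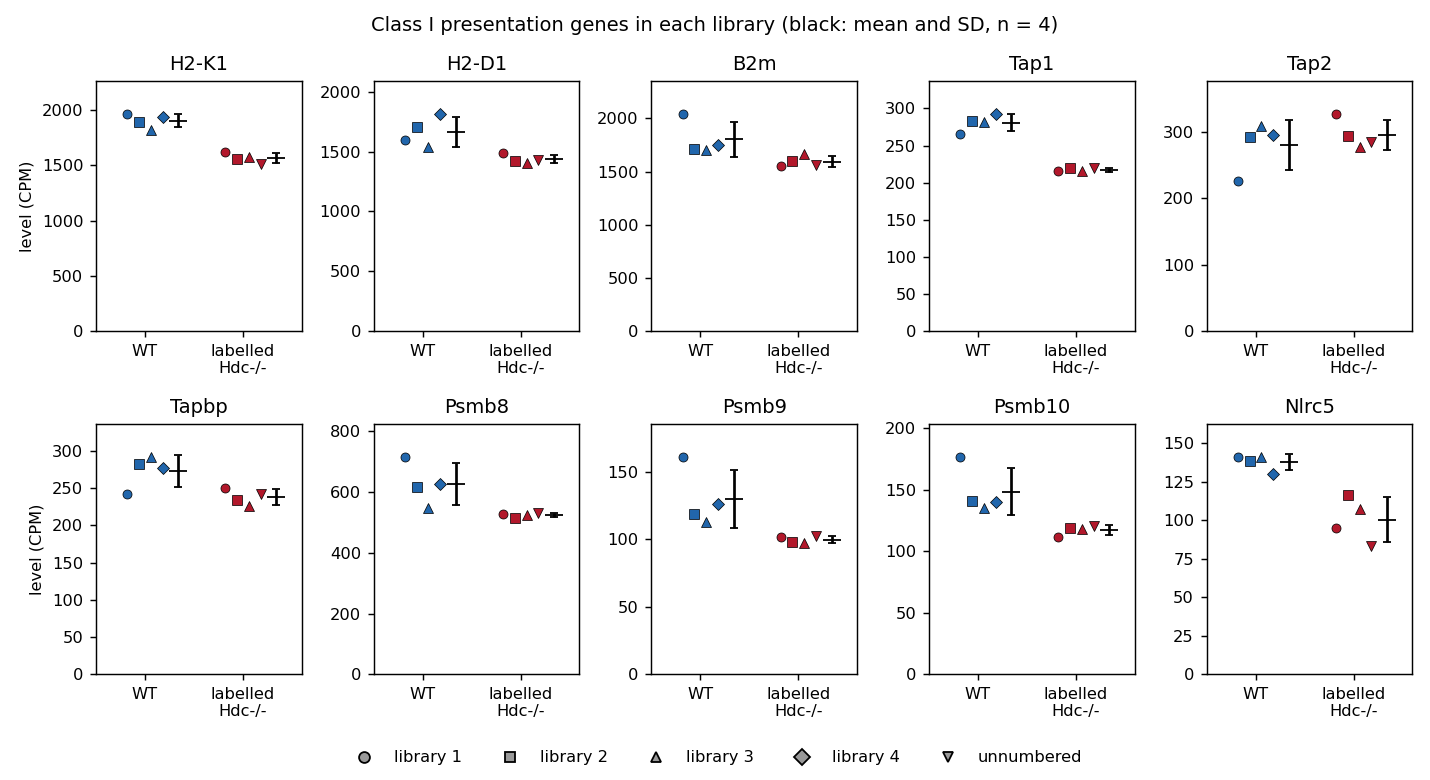
Level of each of the 10 genes in CPM (vertical axes, from 0) in the 4 WT libraries (blue) and the 4 libraries labelled Hdc-/- (red), with symbols for library numbers and black marks for the mean and SD (n = 4). Groups separate in all genes but Tap2 and Tapbp. WT 1 (blue circle) is the highest point for B2m, Psmb8, Psmb9 and Psmb10, narrowly also for H2-K1 and Nlrc5, and the lowest for Tap2.

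Both heavy chains fell. H2-K1, the K heavy chain that binds peptide for display, stood at 1619, 1561, 1574 and 1512.5 CPM in Hdc-/- libraries 1, 2 and 3 and the unnumbered library, and at 1967, 1894, 1822 and 1937 CPM in WT 1 to 4. Every WT library lay above every library labelled Hdc-/-, and the log2 fold change was -0.28 (SE 0.05, adjusted p = 0.00138), a level 17.8% lower. H2-D1, the D heavy chain, stood at 1488, 1422, 1407 and 1433 CPM against 1597, 1706, 1535 and 1816.0 CPM. These groups did not overlap either, but WT libraries were spread more widely, and the fall was smaller (log2 fold change -0.21, SE 0.06, adjusted p = 0.0374). The 2 chains are close copies and reads shared between them could be split or lost in counting, so each value is less certain than its read number. The ratio of H2-D1 to H2-K1 reads within a library did not pass (mean log2 ratio -0.12 ± 0.04 against -0.20 ± 0.09, SD, n = 4, adjusted p = 0.23 by the exact permutation test described below).

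B2m, the light chain shared by class I molecules, was lower by less than the threshold asks. Its level was 1548, 1601, 1668 and 1558 CPM in the libraries labelled Hdc-/- and 2044, 1713, 1699.8 and 1749 CPM in WT, and the log2 fold change was -0.18 (SE 0.06, adjusted p = 0.113). No library labelled Hdc-/- reached the lowest WT library, yet the highest of the former and the lowest of the latter were close, and without WT 1 the fold change was -0.11 (adjusted p = 0.088). B2m lies on chromosome 2 with 26 tested genes between it and Hdc, so its value cannot be told apart from any difference between the groups in the DNA that flanks Hdc. Of the other 9 genes, 7 lie on chromosome 17, in the order Tapbp, H2-K1, Psmb9, Tap1, Psmb8, Tap2 and H2-D1, and Psmb10 and Nlrc5 lie on chromosome 8.

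The genes of the peptide transporter differed from each other. Tap1 was at 215.2, 220.0, 215.5 and 219.3 CPM in the libraries labelled Hdc-/- and at 265.3, 283.5, 282.2 and 292.9 CPM in WT. It had the smallest p of the 10 (log2 fold change -0.37, SE 0.05, adjusted p = 0.00037), and its groups were well apart. Tap2 was at 327.6, 293.9, 277.4 and 284.5 CPM against 225.6, 292.4, 308.4 and 295.1 CPM. Its groups overlapped and its log2 fold change of 0.08 (SE 0.09, adjusted p = 0.69) did not pass; without WT 1, the lowest library, it was -0.01 (adjusted p = 0.94). Tapbp was at 249.9, 234.4, 225.3 and 242.4 CPM against 241.3, 281.5, 291.6 and 277.0 CPM. WT 1 lay inside the range of the libraries labelled Hdc-/-, and the log2 fold change of -0.20 (SE 0.07, adjusted p = 0.11) passed once WT 1 was left out (-0.25, adjusted p = 0.0037).

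All 3 immunoproteasome subunits fell. Psmb8, which takes the place of the chymotrypsin-like subunit Psmb5, was at 527.4, 515.6, 523.6 and 532.4 CPM in the libraries labelled Hdc-/- and at 715.8, 615.4, 546.0 and 626.6 CPM in WT (log2 fold change -0.25, SE 0.07, adjusted p = 0.0399). Psmb9, which replaces Psmb6, was at 101.5, 98.0, 97.1 and 102.9 CPM against 161.2, 118.8, 113.3 and 126.5 CPM (-0.38, SE 0.09, adjusted p = 0.026). Psmb10, which replaces the trypsin-like subunit Psmb7, was at 111.8, 118.8, 117.9 and 120.3 CPM against 176.6, 141.1, 135.2 and 140.0 CPM (-0.34, SE 0.08, adjusted p = 0.021). For each gene all WT libraries lay above all those labelled Hdc-/-, WT 1 was the highest, and the libraries labelled Hdc-/- were close together. Without WT 1 the fold changes shrank to -0.18, -0.26 and -0.24 and each still passed (adjusted p = 0.027, 0.015 and 0.011).

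Nlrc5 had the most negative fold change of the 10. It was at 95.0, 116.0, 107.5 and 83.0 CPM in the libraries labelled Hdc-/- and at 141.0, 138.2, 140.8 and 130.2 CPM in WT, a level 27.0% lower (log2 fold change -0.45, SE 0.09, adjusted p = 0.0054). Here the spread lay in the libraries labelled Hdc-/-, with the unnumbered one lowest, while the WT libraries were close together. Without the unnumbered library the fold change was -0.375 (adjusted p = 0.0164).

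**Figure D2:**
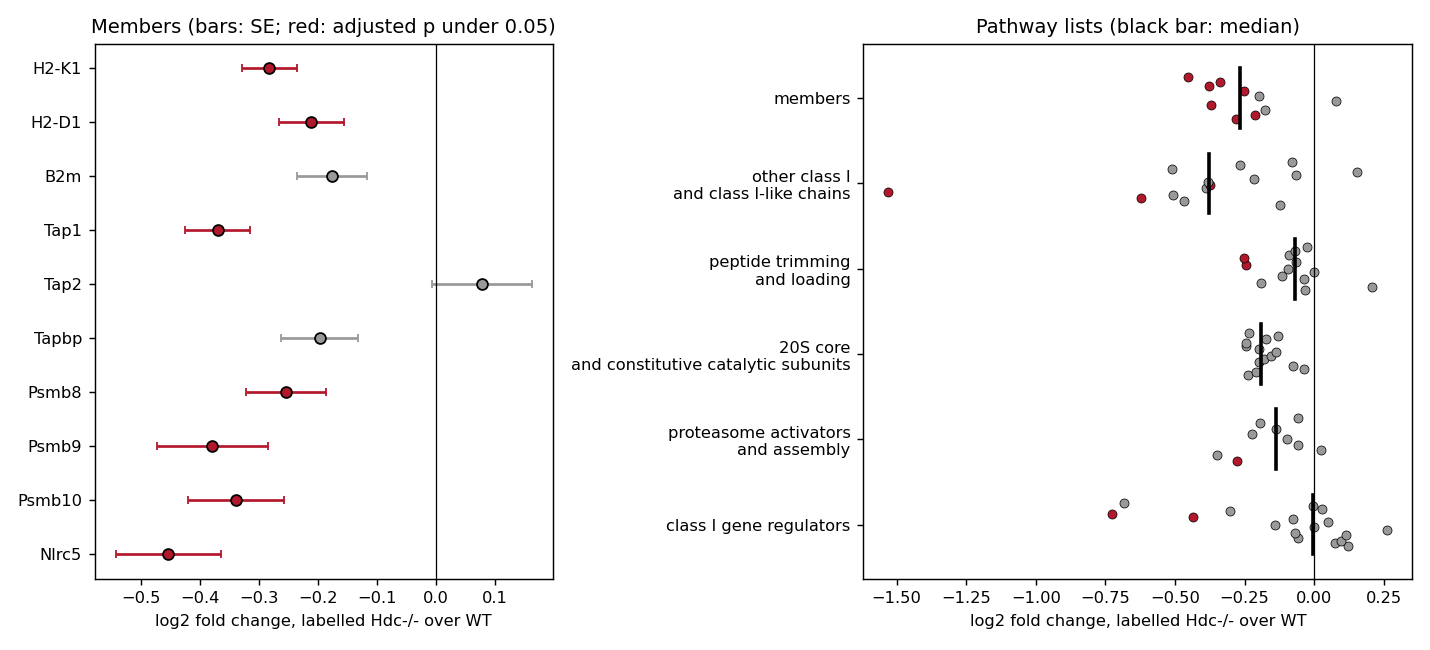
Log2 fold changes (horizontal axes) of the 10 genes with their SE (left) and of every tested gene of the 10 and of 5 fixed pathway lists (right), where red marks an adjusted p under 0.05 and black bars are medians. Tap2 is the only 1 of the 10 to the right of 0, the 20S core genes all lie left of 0 without a call, and Irf9 is a red point among the regulators.

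Levels per kilobase of exon followed a steep order in both groups. In WT, B2m was highest at 2095 ± 189.3 CPM per kilobase, followed by H2-K1 at 1151 ± 38.0, H2-D1 at 791.4 ± 58.9 and Psmb8 at 384.5 ± 42.8 (SD, n = 4). Psmb10, Psmb9, Tap1, Tapbp and Tap2 came next, from 113.1 to 81.5 CPM per kilobase, and the ranges of neighbours in this stretch overlapped. Nlrc5 was lowest at 16.9 ± 0.63 CPM per kilobase. The first 4 ranks and the last were the same in the libraries labelled Hdc-/-, where Tap2 stood at 86.0 ± 6.45 and Tap1 at 73.7 ± 0.85 CPM per kilobase. Exon lengths came from another annotation than the counts, so this order is approximate.

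Ratios of reads within a library, which no scaling between libraries can move, were compared for 5 pairs with an exact two-sided permutation test whose smallest p for 4 against 4 is 0.0286, adjusted over the 5. The ratio of Tap2 to Tap1 reads was 1.52, 1.34, 1.29 and 1.30 in the libraries labelled Hdc-/- and 0.85, 1.03, 1.09 and 1.01 in WT, with no overlap (difference of mean log2 ratios 0.45, adjusted p = 0.048, n = 4, higher in 4 of 4, and 0.38 without WT 1). The ratio of Psmb9 to Psmb6 was 0.401, 0.408, 0.390 and 0.410 against 0.483, 0.443, 0.478 and 0.510 (difference -0.25, adjusted p = 0.048 by the exact test, lower in 4 of 4). The ratio of Psmb8 to Psmb5 was also lower in all 4, at 11, 10.9, 10.8 and 10.8 against 11.1, 11.6, 11.1 and 12.5 in WT. The step was small at -0.09 (adjusted p = 0.048 by the exact test, mean ratio 10.9 against 11.6), and without WT 4 the step was -0.05. These groups almost touched, with log2 ratios of 3.459 in Hdc-/- library 1 and 3.469 in WT 3. An adjusted p of 0.048 needs 3 of the 5 pairs at the smallest p, so all 3 calls depend on this narrow gap. Psmb10 to Psmb7 had overlapping groups (difference -0.11, adjusted p = 0.23 by the exact test). Leaving out any 1 WT library kept the 3 calls, and leaving out any 1 library labelled Hdc-/- ended them (adjusted p from 0.0714 to 0.214, exact test, with 3 against 4 libraries). In the latter fits the groups of the 3 pairs still did not overlap and the differences moved little. They ran from 0.399 to 0.479 for Tap2/Tap1, from -0.258 to -0.234 for Psmb9/Psmb6 and from -0.089 to -0.082 for Psmb8/Psmb5. The loss of the calls therefore does not show dependence on any 1 of these libraries.

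**Figure D3:**
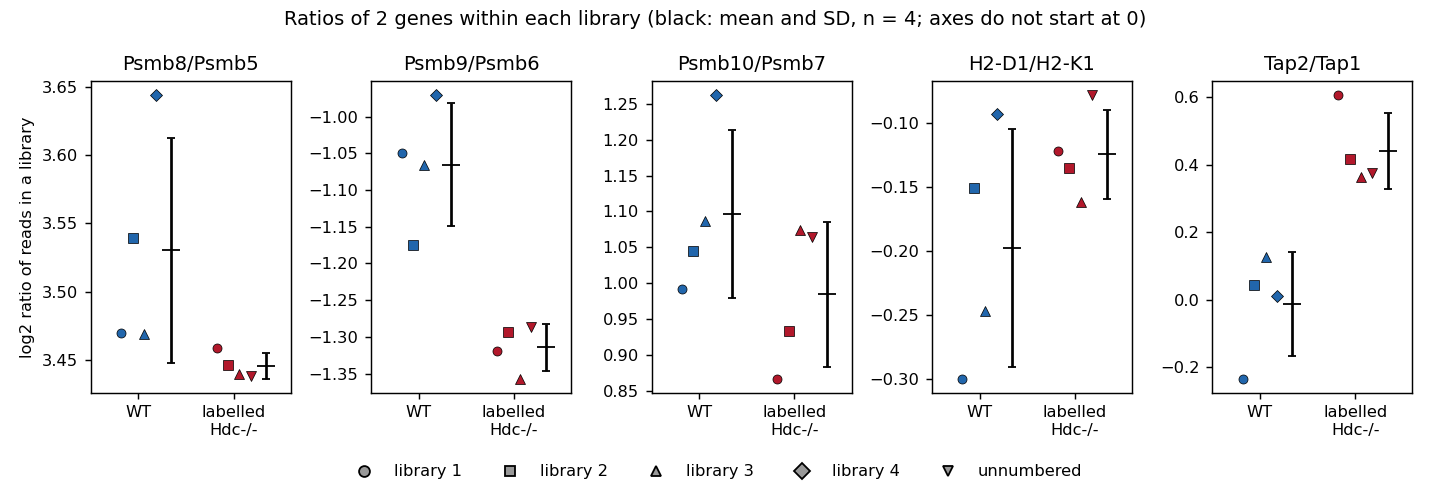
Log2 ratio of the reads of 2 genes within each library (vertical axes, not from 0) for 5 pairs, WT in blue and libraries labelled Hdc-/- in red, with the mean and SD in black (n = 4). Tap2/Tap1 separates with red above blue and Psmb9/Psmb6 and Psmb8/Psmb5 with red below, while the points of the other 2 pairs overlap.

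The constitutive subunits and the rest of the 20S core had no call. Of 14 genes, among them Psmb5, Psmb6 and Psmb7, none passed in edgeR (nor in DESeq2 or limma-voom), 8 had an unadjusted p under 0.05 (18.7% of all genes tested did), and all 14 had a negative fold change, with a median of -0.19. Psmb5 was at -0.17 (SE 0.09, adjusted p = 0.35), Psmb6 at -0.13 (SE 0.09, adjusted p = 0.46) and Psmb7 at -0.24 (SE 0.11, adjusted p = 0.26), and Psma1 came nearest (-0.24, SE 0.07, adjusted p = 0.082). WT 1 was the highest of the 8 libraries for all 14. Without it the median was -0.08, Psmb5 was at -0.075, Psmb6 at -0.014, Psmb7 at -0.097 and Psma1 at -0.143. Of 9 proteasome activator and assembly genes, Psme1 fell (-0.28, SE 0.07, adjusted p = 0.035), an interferon-inducible part of the PA28 cap, and it passed without WT 1 as well. Its partner Psme2, named after its values were seen, was at -0.35 (SE 0.10, adjusted p = 0.056).

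Other class I chains moved the same way as H2-K1 and H2-D1 where they were called. Of 14 tested chains of this list 3 fell and none rose, with a median of -0.38 (-0.30 without WT 1), and DESeq2 called 6. H2-T23, which encodes Qa-1, a ligand of natural killer cell receptors, was at 304.8, 301.1, 298.5 and 285.2 CPM in the libraries labelled Hdc-/- and at 451.9, 370.6, 337.3 and 383.1 CPM in WT (-0.375, SE 0.07, adjusted p = 0.0057). H2-Q6, of the Qa-2 group, was at 37.3, 36.2, 36.9 and 33.9 CPM against 57.2, 55.7, 53.3 and 55.9 CPM (-0.62, SE 0.08, adjusted p = 0.00013). Groups did not overlap for either gene. H2-Q10 was low, with at most 63 reads in a library, and had a fold change of -1.53 (SE 0.39, adjusted p = 0.03). Its close relatives H2-Q7 and H2-Q9 held 0 reads in all libraries, so reads of near-identical copies may not have been counted and the Q region values are uncertain. The class I-like Cd1d1, which presents lipids, was at 0.15 (SE 0.08, adjusted p = 0.34), the highest of the list.

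Of 13 genes of peptide trimming and loading 2 fell, both chaperones of the loading complex: Pdia3 (-0.25, SE 0.05, adjusted p = 0.0057) and Calr (-0.25, SE 0.06, adjusted p = 0.033). Pdia3 lies on chromosome 2 with 38 tested genes between it and Hdc, so the limit given for B2m applies. The median of the list was -0.07, and Erap1, which trims peptides in the endoplasmic reticulum and was named after its values were seen, was at -0.03 (SE 0.07).

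Among the regulators of class I genes Irf9, the DNA-binding part of the complex that acts at interferon-stimulated elements, fell. It was at 168.7, 175.5, 177.9 and 153.9 CPM in the libraries labelled Hdc-/- and at 233.4, 229.2, 221.7 and 229.8 CPM in WT, with no overlap (log2 fold change -0.435, SE 0.06, adjusted p = 0.00024). The median of the list was -0.01, and none of it rose in edgeR with all 8 libraries. In edgeR without WT 1 and in limma-voom with sample quality weights 1 gene of it rose, while more fell than rose. Rfx5 and Creb1, known parts of the complex at class I promoters, did not pass in edgeR with all 8 libraries. They were at 0.12 (SE 0.09, adjusted p = 0.50) and 0.26 (SE 0.09, adjusted p = 0.105). Irf1, which binds interferon elements, was at -0.14 (SE 0.06, adjusted p = 0.20). These 3 were named after their values were seen.

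The falls in the class I genes were smaller in size than those of interferon-inducible genes outside class I. Of 20 such genes 18 fell and none rose, with a median log2 fold change of -0.86 and a lowest value of -1.22 for Ifit3, against a median of -0.27 and a lowest of -0.45 for the 10 genes. The list was written with its direction in these samples known and is no independent evidence of it, and the difference between the lists was not tested.

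Markers of other cells moved beside these genes. Neutrophil markers fell in 9 of 9 tested, with a summed level of 752.9 to 1340.7 CPM in the libraries labelled Hdc-/- and 2509.7 to 3856 CPM in WT (up to 2966 CPM without WT 1). B cell markers fell in 5 of 7 tested, with 134.7 to 145.7 CPM against 195.5 to 253.8 CPM in WT (up to 207.7 CPM without WT 1). Their largest part was Cd79b, which did not pass. Without Cd79b the sum was 41 to 49.7 CPM against 91.1 to 122.6 CPM in WT. Red cell markers rose in 5 of 5, with 232.3 to 257.5 CPM against 3.58 to 9.58 CPM in WT. Of the macrophage markers 0 of 8 tested passed in edgeR (96.0 to 114.5 CPM against 73.4 to 92.4 CPM), 5 had an unadjusted p under 0.05, and 3 rose in DESeq2 and 1 in limma-voom. Of the dendritic cell markers 2 of 6 tested rose and 1 fell. Their sum (1024 to 1058 CPM against 851.4 to 956.1 CPM) was mostly Flt3, which progenitors also express. Without Flt3 the sum was 92.1 to 105.5 CPM against 116.4 to 134.3 CPM. Most of that rest was Bst2, the marker that fell, with a mean of 71.4 against 100.1 CPM. Bst2 is also in the list of interferon-inducible genes. Ccr9, which rose beside Flt3, had a mean of 16.9 against 11.3 CPM, and 3 of the 6 had a negative fold change. The lower sum without Flt3 therefore does not show a fall of these markers as a set. Of the T and natural killer cell markers 1 of 4 fell, Nkg7, which made up most of their sum (271 to 285 CPM against 336.4 to 428.3 CPM, up to 363.3 CPM without WT 1), and without Nkg7 the sum was 11.4 to 15.3 CPM against 13.0 to 17.6 CPM. Of the endothelial and stromal markers 0 of 3 passed in edgeR (127.1 to 145.2 CPM against 123.3 to 139.4 CPM), mostly Pecam1, without which the sum was 3.37 to 6.73 CPM against 1.35 to 4.82 CPM. In this list 1 had an unadjusted p under 0.05, and DESeq2 and limma-voom each called 1 higher. The T cell genes Cd3d, Cd3e, Cd3g and Cd8a held at most 10 reads in any library, as did the stromal and endothelial genes Cdh5, Lepr and Col1a1, and no marker was at 0 in all libraries. Their part in the class I result was not tested. The 10 genes had a summed level of 6089 to 6284 CPM in the libraries labelled Hdc-/- and 6874 to 7535 CPM in WT.

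The calls rested on small differences, and single libraries mattered to them. H2-K1, Tap1 and Nlrc5 passed without any 1 of the 8 libraries. H2-D1 and Psmb8 passed in 2 of these 8 fits, Psmb9 in 3 and Psmb10 in 4, while B2m and Tap2 passed in none and Tapbp in 1. Counts of the 10 that fell were 3 without any 1 of the libraries labelled Hdc-/-, 4 without WT 4, 5 without WT 2, 7 without WT 3 and 8 without WT 1. Over all 13120 to 13178 genes tested in these fits, 242 to 278 fell without any 1 library labelled Hdc-/-. The number was 278 without WT 4, 286 without WT 2, 322 without WT 3 and 433 without WT 1, against 352 with all 8 libraries. Of the called genes outside the 10, Irf9, H2-Q6, H2-T23 and Pdia3 passed without any 1 library. H2-Q10 lost its call without 5 of the 8 (adjusted p up to 0.124, without WT 4), Calr without 5 (up to 0.13, without the unnumbered library) and Psme1 without any 1 library labelled Hdc-/- (0.0704 to 0.125).

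**Figure D4:**
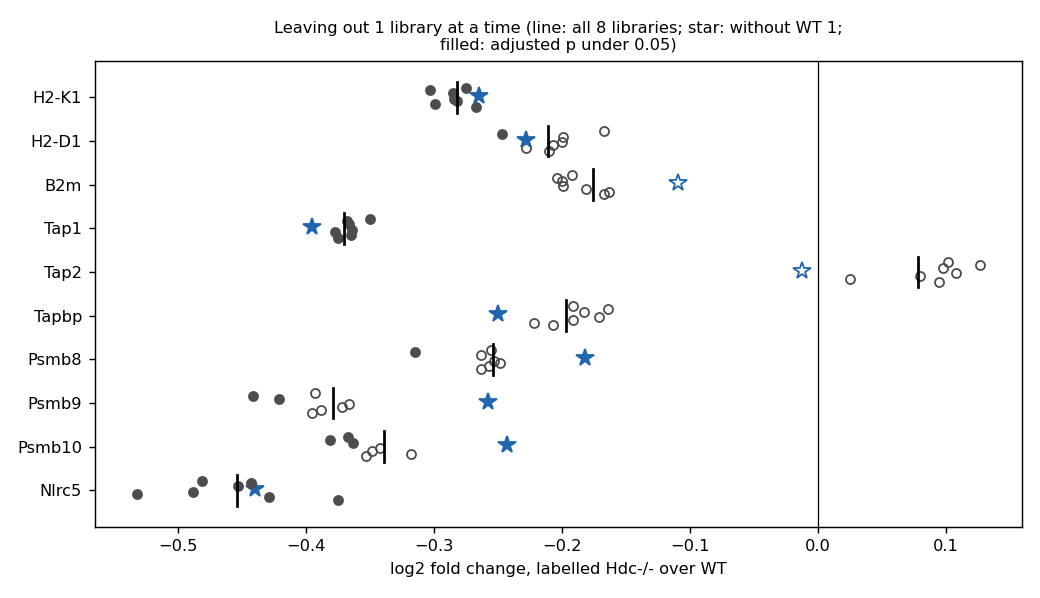
Log2 fold change (horizontal axis) of each of the 10 genes with 1 library left out at a time, as points around the value with all 8 libraries (vertical line). Filled symbols passed an adjusted p of 0.05, stars are the fits without WT 1, and H2-K1, Tap1 and Nlrc5 are filled throughout.

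The genes whose profile over the 8 libraries came nearest to the mean profile of the 10 were Hspa4, Xbp1, Tacc3, Shisa5 and P4hb, with a root mean square difference of 0.04 each on the log2 CPM scale after centring, against a median of 0.22 over all genes tested. H2-K1 itself was at 0.02, and Tap2 and Nlrc5 were farthest of the 10 at 0.23 and 0.17. Hspa4 is a heat shock protein of the cytosol, Xbp1 a transcription factor of the unfolded protein response, Tacc3 a protein of the mitotic spindle and P4hb a protein disulfide isomerase. The measure takes in the difference between the groups, so it is a description of likeness in these libraries.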

How the data were processed

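The submitters' processing notes name genome build mm9 and the tools HTSeq 0.6.1, TopHat2 2.0.4, Bowtie2 and bcl2fastq 1.8.4, without roles; annotation and counting settings are not stated there. Per the labels' protocols, libraries were made with Nextera XT from cDNA of a SMARTer kit for low input, which does not mark strand, so reads of overlapping and antisense genes cannot be told apart. Values deposited by the authors are whole-number read counts for each gene symbol, with no molecular identifiers. The 2 entries named only by a number were left out (at most 0.032% of reads). Columns were matched to titles by number, except 1 column of the group labelled Hdc-/- whose number is in no title, called the unnumbered library. Within groups Pearson's r over genes was 0.979 to 0.987 and no library was a copy of another (chi-square per gene at least 6.84). Columns left unused numbered 0.

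Counts were tested with edgeR 4.0.16 in R 4.3.3 (TMM scaling, filterByExpr with minimum count 10 and total 15, quasi-likelihood test, two-sided, Benjamini-Hochberg over 13005 genes). Fold changes are the libraries labelled Hdc-/- over WT, and levels are CPM after TMM scaling. Ratios used counts plus 0.5. Exon lengths came from GENCODE M21, promoters and chromosomes from RefSeq GRCm38.p6. Alternatives were DESeq2 1.42.0, limma 3.58.1 (voom with and without sample quality weights), other scalings, no filter, no chromosome 2 genes, a replicate block and each library left out. Scripts were tested on simulated data. The 10 genes and the lists were chosen with earlier results of these data known. Named genes are the 10, list members past the threshold (up to 3 with the smallest p where none was), Psmb5, Psmb6, Psmb7 and the 5 nearest profiles; others are marked as named after their values were seen, apart from markers and Cd1d1, chosen as its list's highest. A result on 1 list member is not reported here.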

Additional observations from a re-analysis of the deposited data

Results flagged for a closer look

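In WT, 1 library stood far from the other 3 for 4 of the genes named in the report, and each time it was WT 1, as the highest. B2m was at 2044 CPM in WT 1 against 1699.8 to 1749 CPM in the others, and Psmb10 at 176.6 CPM against 135.2 to 141.1 CPM. Psmb4, of the 20S core, was at 152.2 CPM against 107.5 to 112.2 CPM, and Psme1 at 367.6 CPM against 289.2 to 298.6 CPM. These 4 came from 68 groups of 4 libraries screened, where chance gives about 1 in 20. That rate holds for independent groups. Here all 4 flags are WT 1 on the same side, and the groups share their libraries. The count therefore cannot tell whether the flags arose by chance. WT 1 was also higher than the other WT libraries for genes with short exons in general (median log2 difference 0.31 under 1000 bases, 0.10 from 1000 to 3000 bases and -0.10 above), and the part of this in the flagged values was not tested. Without WT 1, Psmb10 kept its call and B2m still had none.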

How the results depend on the processing

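The 7 calls among the 10 genes held in every scaling, test and filter tried with all 8 libraries, and sample quality weights added Tapbp. Over all genes, DESeq2 called 448 higher and limma-voom with sample quality weights 428, against 267, and each called 502 lower, against 352. With 1 library left out, the number of the 10 that fell ran from 3 to 8, with fewer samples in each fit. Over all genes, the number that fell ran from 242 to 433 and the number that rose from 137 to 382. Tap2 changed sign without WT 1, and with 1 library left out ran from -0.012 to 0.127. Differences in log2 ratio ran from -0.105 to -0.047 for Psmb8/Psmb5, from -0.285 to -0.217 for Psmb9/Psmb6 and from 0.38 to 0.501 for Tap2/Tap1. Same-numbered libraries did not deviate together (r from -0.0567 to -0.0171), and r for differently numbered ones ran from -0.0386 to 0.0557. With so few libraries, each centred on its group mean, such values cannot exclude a pairing. The labels state none. The replicate block, possible for 6 libraries, left 2 of the 10 lower, with 189 genes lower and 123 higher. Those 6 libraries without the block, an alternative chosen after seeing the data, gave 3, 211 and 134. No scaling moved the median of all genes by as much as 0.1. Without chromosome 2 genes B2m, Psmb7 and Pdia3 had no value. Depth limits H2-Q10, with 11 to 63 reads in a library.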
